A study of Equus caballus with 24 samples.

Results

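The genes described here encode parts of the neuronal cytoskeleton and of the synaptic vesicle machinery. They are the neurofilament chains NEFL, NEFM and NEFH, the tubulin TUBB3, the microtubule proteins MAP2 and STMN2, the growth cone protein GAP43, the vesicle fusion proteins SNAP25 and SYT1, and the splicing factor RBFOX3. Members were found by an equal gene name in both deposited tables, of reads and of RPKM. This gave 9 of the 10 genes, among 24232 genes in the table of reads. No row carries the name NEFL. A row without a symbol (ENSECAG00000022890) has the words neurofilament light polypeptide as its description, and its values are given apart and are not counted with the 9.

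Neurofilaments are the intermediate filaments of the axon and are built from light, medium and heavy chains. TUBB3 is the beta-tubulin used mainly by neurons, MAP2 binds microtubules in dendrites and cell bodies, and STMN2 regulates microtubule assembly in growing axons. SNAP25 is a SNARE protein of the cell membrane and SYT1 is a calcium sensor on vesicles, and both also serve hormone release from endocrine cells. RBFOX3, also known as NeuN, is found in the nuclei of most mature neurons. The pituitary joins an anterior lobe of endocrine cells with a posterior lobe. The posterior lobe is made of axons and endings of hypothalamic neurons that release vasopressin and oxytocin, and of the glial pituicytes around them. The end of a long bone holds bone, cartilage, marrow and vessels and is reached by peripheral nerve fibers.

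RNA was sequenced from the pituitary (P) and the long bone epiphysis (LB) of 12 female horses, 6 of each breed. The Debao pony (DP) is a small Chinese breed and the Mongolian horse (MH) the larger one it was compared with, and juveniles (J) were younger than 3 years and adults (A) older. The 8 groups of 3 libraries are the pituitary groups DPPJ, MHPJ, DPPA and MHPA and the long bone groups DPLBJ, MHLBJ, DPLBA and MHLBA. A library is named by its group and replicate, so MHPJ 2 is replicate 2 of the juvenile MH pituitary.

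Reads on genes numbered 11433209 to 23573036 in the pituitary libraries and 11616518 to 27007342 in those of the long bone. The labelled tissue was checked against marker genes on the CPM scale, which is counts per unit of library size after TMM scaling. The hormone genes GH, PRL, POMC, TSHB and FSHB of the anterior lobe summed to between 11009 and 33507 CPM in 7 pituitary libraries. They were nearly absent, at under 100 CPM in sum, from the other 5. Their sum was 0.164, 7.10 and 0.126 CPM in MHPJ 1, 2 and 3, 14.6 CPM in DPPA 1 and 0.944 CPM in MHPA 1. The glial list of 9 genes lay between 3418 and 9892 CPM in these 5 libraries and between 66.0 and 3272 CPM in the other 7. GFAP, a member of that list, was at 48.5 CPM in MHPJ 2 and between 1685 and 6807 CPM in the other 4. DPPA 1 held 22751 reads of the vasopressin gene AVP, DPPJ 2 held 4647 and the other 10 at most 71. All 3 MHPJ libraries and no DPPJ library lacked the hormone genes, so breed and hormone content of the tissue cannot be told apart in juveniles. In the long bone, the collagen gene COL2A1 of cartilage ranged from 18 to 298103 reads and was at most 141 reads in each MHLBJ library.

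**Figure D1:**
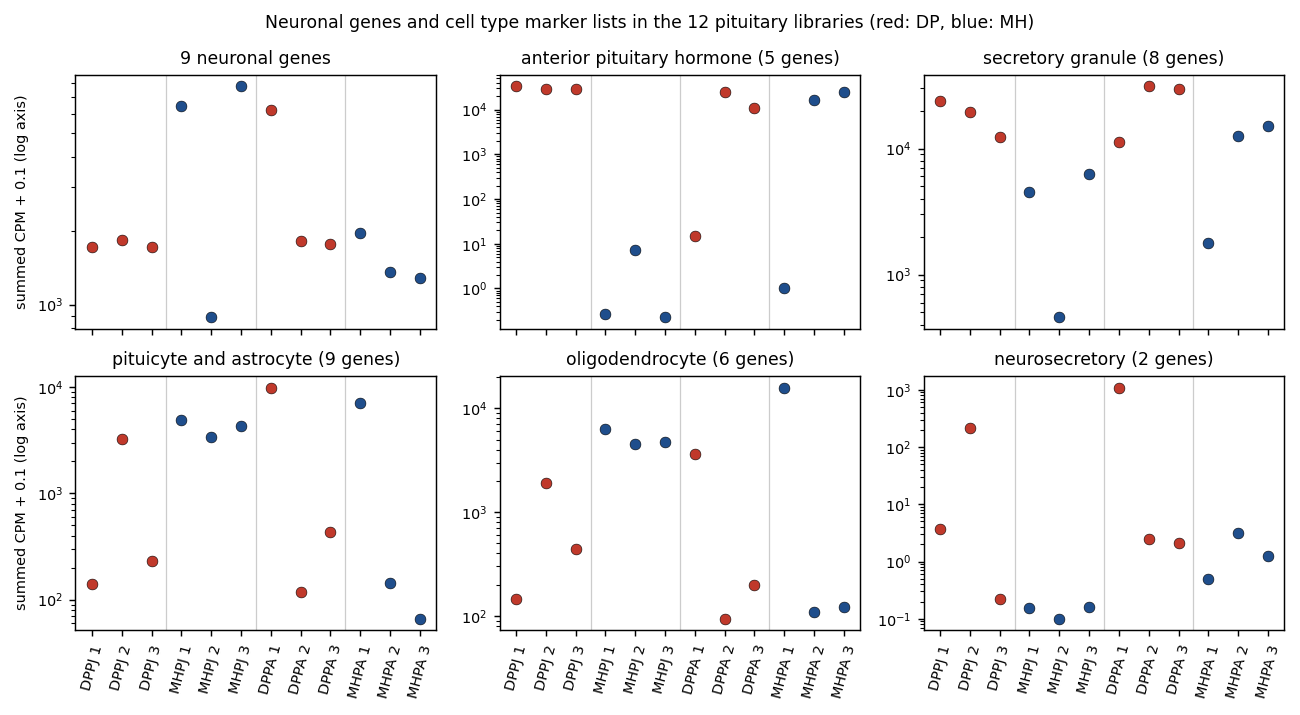
Summed CPM (plus 0.1, log axis) of the 9 neuronal genes and of 5 cell type marker lists in each of the 12 pituitary libraries, with DPs in red and MHs in blue. The neurosecretory list is AVP and OXT. The 3 highest sums of the neuronal genes are in MHPJ 1, MHPJ 3 and DPPA 1, which are among the 5 libraries with hormone sums of at most 14.6 CPM.

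All 9 genes were far higher in the pituitary than in the long bone. The log2 difference between the mean of the 4 pituitary groups and that of the 4 long bone groups ran from 3.94 (SE 0.429) for TUBB3 to 8.43 (SE 0.827) for STMN2. In this comparison 21.5% of the 16131 tested genes were called higher in the pituitary and 38.9% in either direction. A gene was called when edgeR's quasi-likelihood test gave P under 0.05 before adjustment and the levels differed more than 2-fold, which is the study's threshold. The edgeR adjusted p of the 9 genes lay between 4.17e-08 for NEFM and 5.68e-06 for GAP43. NEFH, GAP43 and RBFOX3 had too few reads to be tested in any comparison within the long bone. They entered this test through the pituitary alone, and their calls are not read as support for the difference. STMN2 had at most 3 reads in 6 of the 12 long bone libraries, so its log2 difference rests on values near 0. The median log2 difference of the 9, NEFH, GAP43 and RBFOX3 included, was 6.79, against 0.03 for all tested genes. It was 5.33 without the 5 libraries that nearly lack the hormone genes, with the same genes included. Levels in the 12 pituitary libraries lay above those in the 12 long bone libraries for 6 of the 9, NEFH among them, where 4.67% of tested genes did so. GAP43 and RBFOX3 overlapped, as did SNAP25, whose lowest pituitary level of 17.1 CPM, in MHPJ 2, was under the 17.4 CPM of MHLBA 1.

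Per gene length, NEFM and SNAP25 were the most abundant of the 9 in the pituitary, with median RPKM of 205 and 199.7 over the 12 libraries. STMN2 followed with a median RPKM of 76.2, MAP2 with 36.7, TUBB3 with 29.7, SYT1 with 27.4 and GAP43 with 14.8. NEFH and RBFOX3 were lowest, with median RPKM of 9.76 and 2.54. In the long bone the median RPKM was highest for TUBB3 (3.08) and NEFM (1.17) and was at most 0.455 for each other gene. The row described as neurofilament light had a median RPKM of 114.6 in the pituitary and 0.905 in the long bone.

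MHPJ had the highest mean CPM of all 8 groups for each of the 9 genes and DPPA the next highest. The libraries of these 2 groups overlapped for all 9. The 4 pituitary groups stood above the 4 long bone groups by their means for all 9 genes, and the lowest pituitary group and the highest long bone group did not overlap except for GAP43. Within the long bone every pair of neighbours in the order of means overlapped.

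**Figure D2:**
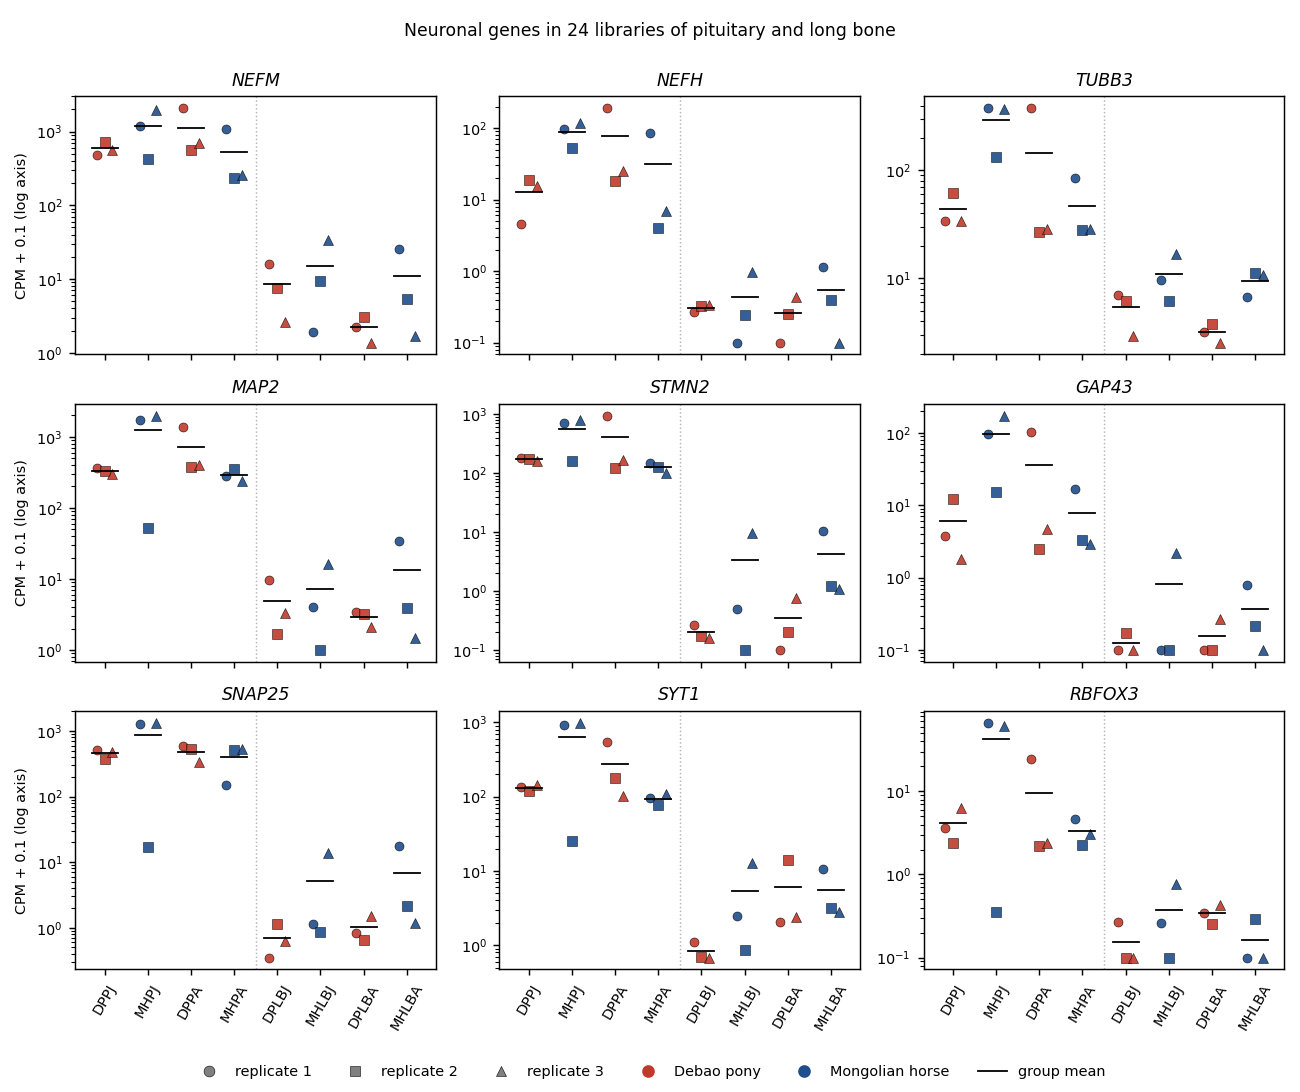
CPM plus 0.1 (log axis) of each gene in every library of the 8 groups, with DPs in red, MHs in blue, symbols for the replicates and a line for the group mean. MHPJ 2 lies below MHPJ 1 and MHPJ 3 for every gene, and DPPA 1 lies above DPPA 2 and DPPA 3 for every gene.

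The comparison of juvenile DPs and MHs asks which genes differ between a small and a larger breed while it grows. In the pituitary, NEFH, TUBB3, STMN2 and GAP43 were lower in DPs, and the fitted change of all 9 genes was below 0, which for SNAP25 turned to 0.71 with limma on log2(RPKM + 0.1) and was also above 0 with limma on log2(RPKM + 1) and with the replicate block. At this threshold 12.7% of the 14603 tested genes were called lower in DPs and 20.3% in either direction. The median log2 fold change of the 9 was -2.30, against -0.07 for all tested genes. In a bulk sample, fewer cells of a type and less RNA per cell cannot be told apart.

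Among the filament genes, NEFH (ENSECAG00000018444), the heavy chain, stood at 4.42, 18.8 and 15.2 CPM in DPPJ 1, 2 and 3 and at 97.0, 52.9 and 117 CPM in MHPJ. The breeds did not overlap, and the log2 fold change was -2.83 (SE 0.596, edgeR adjusted p = 0.0398). NEFM (ENSECAG00000022370), the medium chain, had 477, 731 and 564 CPM in DPPJ and 1189, 429 and 1939 CPM in MHPJ. It overlapped because MHPJ 2 was below every DPPJ library, and it did not pass the test. The row described as neurofilament light also overlapped between the breeds, with 174, 282 and 240.0 CPM in DPPJ and 855, 235 and 924 CPM in MHPJ. MHPJ 2 lay within the DP range, and unlike NEFM this row was called, at -1.56 on the log2 scale (SE 0.516, edgeR adjusted p = 0.104).

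TUBB3 (ENSECAG00000012818) gave the lowest edgeR adjusted p of the 9 in juveniles. Its levels were 33.8, 62.3 and 34.2 CPM in DPPJ and 378, 132 and 368 CPM in MHPJ. All MHs were above all DPs, and the log2 fold change was -2.78 (SE 0.481, edgeR adjusted p = 0.0266). STMN2 (ENSECAG00000018134) had 181, 176 and 163 CPM in DPPJ and 719, 164 and 803 CPM in MHPJ. MHPJ 2 lay within the DP range, and the log2 fold change was -1.72 (SE 0.556, edgeR adjusted p = 0.0985). MAP2 (ENSECAG00000023919) was at 366, 330.0 and 296 CPM in DPPJ and at 1702, 51.5 and 1993 CPM in MHPJ. MHPJ 1 and 3 were far above the DPs and MHPJ 2 far below them, and MAP2 did not pass the test.

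GAP43 (ENSECAG00000015314), which is abundant in growth cones and regenerating axons, showed the largest fitted change of the 9. It stood at 3.71, 12.3 and 1.71 CPM in DPPJ and at 96.5, 15.0 and 173 CPM in MHPJ. The breeds did not overlap, and the log2 fold change was -4.03 (SE 1.12, edgeR adjusted p = 0.0717). NEFH, TUBB3 and GAP43 were the 3 genes without overlap, where 17.3% of tested genes had all DPs below all MHs.

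The vesicle genes did not pass the test in juveniles. SNAP25 (ENSECAG00000023077) had 509, 378 and 486 CPM in DPPJ and 1280.4, 17.1 and 1326 CPM in MHPJ. SYT1 (ENSECAG00000012832) had 136, 118 and 145 CPM in DPPJ and 928, 25.4 and 984 CPM in MHPJ. The DP libraries agreed closely for both genes, while the MH libraries lay on both sides of them. RBFOX3 (ENSECAG00000023811) was at 3.55, 2.28 and 6.23 CPM in DPPJ and at 66.8, 0.251 and 60.7 CPM in MHPJ, and its value in MHPJ 2 rests on 3 reads.

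MHPJ 2 stood apart from MHPJ 1 and 3, and the 9 genes were not lowered alike in it. Compared with the mean of MHPJ 1 and 3, NEFH was 2.03-fold lower in MHPJ 2, TUBB3 2.82-fold, NEFM 3.64-fold, STMN2 4.65-fold and GAP43 8.96-fold. MAP2 was 35.9-fold lower, SYT1 37.7-fold, SNAP25 76.1-fold and RBFOX3 254-fold. The axonal filament and growth cone genes were thus lowered less in this library than the dendritic, vesicle and nuclear genes. MHPJ 2 also held 1533 reads of PRPH, an intermediate filament gene of peripheral neurons, against 15 to 214 in the other pituitary libraries. The whole list of 7 peripheral neuron genes summed to 132.8 CPM in MHPJ 2, of which PRPH gave 128 CPM, to 126 CPM in DPPA 1 and to between 4.38 and 56.5 CPM in the other 10. Of the rest of this list, MHPJ 2 had 10 reads of TAC1, 16 of ISL1 and 0 of CALCA. The part of nerve tissue in these values was not tested. Without MHPJ 2 all 9 genes were called lower in DPs, with log2 fold changes from -1.41 (SE 0.270) for NEFM to -4.52 (SE 0.763) for GAP43. The share of all tested genes called without MHPJ 2 was not counted, so this is not read as particular to the 9 genes.

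**Figure D3:**
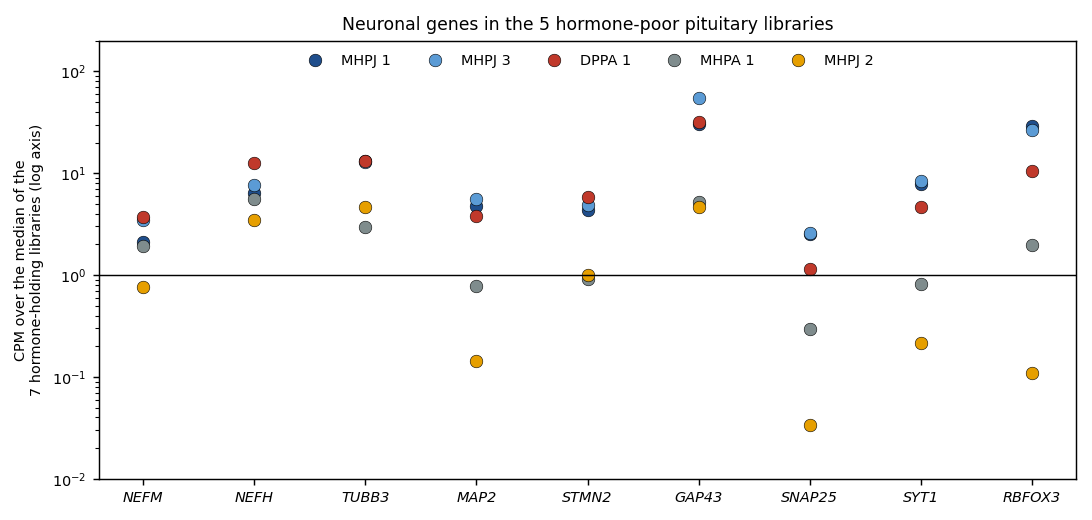
CPM of each gene in the 5 pituitary libraries that nearly lack anterior lobe hormone genes, divided by its median over the 7 other pituitary libraries (log axis, line at 1). MHPJ 1, MHPJ 3 and DPPA 1 lie above 1 for all 9 genes, while MHPJ 2 falls to 0.0336 for SNAP25 and 0.109 for RBFOX3.

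In the 7 libraries with hormone genes the 9 genes varied much less. The highest of these libraries was 1.59 times the lowest for SNAP25, 1.66 times for MAP2 and 1.76 times for STMN2, and up to 7.17 times for GAP43. MHPJ 1, MHPJ 3 and DPPA 1 exceeded the median of these 7 libraries for every gene, from 1.15-fold for SNAP25 in DPPA 1 to 54.2-fold for GAP43 in MHPJ 3. MHPA 1 exceeded it for NEFM (1.93-fold), NEFH (5.60-fold), TUBB3 (2.96-fold), GAP43 (5.26-fold) and RBFOX3 (1.96-fold). For SNAP25 MHPA 1 stood at 0.296 of that median.

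None of the 9 genes passed the test between adult DPs and MHs in the pituitary. edgeR called 0 of 9, with 0 at an unadjusted P under 0.05, where 2.93% of the 14376 tested genes were called and 1.75% were called higher in DPs. DESeq2 called MAP2, STMN2 and SYT1. All 9 fitted log2 fold changes were above 0 with all 6 libraries, and their median was 1.53, against -0.01 for all tested genes.

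NEFM stood at 2080.1, 569 and 699 CPM in DPPA and at 1088, 236 and 255 CPM in MHPA, and NEFH at 190.0, 18.2 and 24.6 CPM and at 85.0, 3.86 and 6.72 CPM. Replicate 1 was the highest of its group for both filament genes in either breed, and the groups overlapped. TUBB3 had 376, 26.7 and 28.6 CPM in DPPA and 84.8, 27.9 and 28.5 CPM in MHPA. STMN2 had 952, 124 and 169 CPM and 149, 126 and 102 CPM. DPPA 2 and 3 and MHPA 2 and 3 lay between 26.7 and 28.6 CPM for TUBB3 and between 102 and 169 CPM for STMN2, and DPPA 1 stood apart.

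MAP2 was the gene whose adult groups did not overlap, with 1375, 373 and 398 CPM in DPPA and 278, 358 and 239 CPM in MHPA. All DPs were above all MHs for 9.75% of tested genes. GAP43 had 102, 2.39 and 4.60 CPM in DPPA and 16.8, 3.19 and 2.81 CPM in MHPA, and RBFOX3 had 24.3, 2.08 and 2.30 CPM and 4.52, 2.18 and 2.98 CPM. SYT1 was at 543, 177 and 102 CPM in DPPA and at 96.4, 78.1 and 109 CPM in MHPA. SNAP25 differed from the rest in that MHPA 1 was the lowest library, with 584, 526 and 339.5 CPM in DPPA and 150.4, 519.6 and 539.7 CPM in MHPA.

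Libraries with the same replicate number deviated together in this comparison. With the replicate number as a block, edgeR called NEFM, with a log2 fold change of 1.20 (SE 0.206), and NEFH, with 1.72 (SE 0.270), both at an adjusted p of 0.331. The adult values rest on DPPA 1 and MHPA 1. Without DPPA 1 the median log2 fold change was 0.090, and the fitted changes of NEFH, TUBB3, GAP43 and RBFOX3 turned negative. That of SNAP25 turned negative without MHPA 1, and those of TUBB3, SNAP25 and RBFOX3 did without both. Without DPPA 1 and MHPA 1, NEFM was higher in DPs by 1.34 (SE 0.163) and NEFH by 1.98 (SE 0.345) on the log2 scale, at edgeR adjusted p of 0.0426 and 0.0587. Over the alternatives that keep all 6 libraries or leave out these 2, the adjusted p ran from 0.0426 to 0.762 for NEFM and from 0.0587 to 0.813 for NEFH. Leaving out MHPA 1 alone gave 2 calls (NEFM and NEFH), leaving out DPPA 2 gave 2 (MAP2 and STMN2) and leaving out DPPA 3 gave 2 (MAP2 and SYT1).

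**Figure D4:**
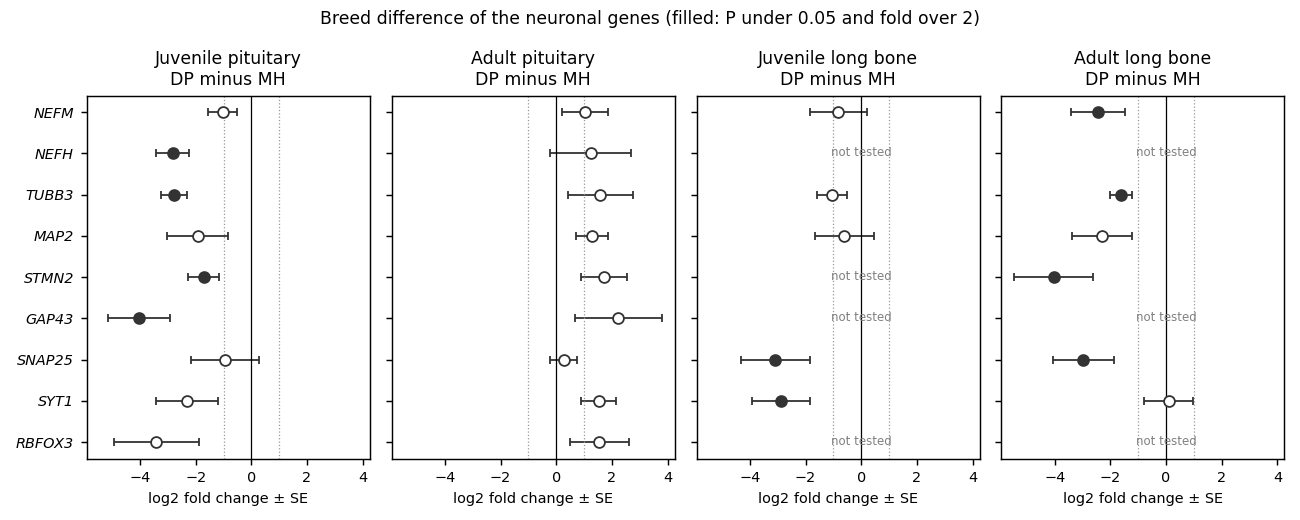
Log2 fold change (DP minus MH) with its SE for each gene in the 4 breed comparisons, from edgeR, with filled points for calls at P under 0.05 and fold over 2 and dotted lines at a fold of 2. In juvenile pituitary all points lie left of 0 and in adult pituitary all lie right of 0, except that SNAP25 changes side in juveniles with limma or the replicate block, and NEFH, TUBB3, GAP43 and RBFOX3 do so in adults without DPPA 1.

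The breed effect was tested for a difference between the stages in the 12 pituitary libraries. It was lower in juveniles than in adults for 7 of the 9 genes, where 8.87% of the 15200 tested genes were called lower and 15.7% in either direction. The difference on the log2 scale was -6.27 (SE 2.12) for GAP43, -4.97 (SE 1.98) for RBFOX3, -4.37 (SE 1.40) for TUBB3 and -4.08 (SE 1.73) for NEFH. It was -3.82 (SE 1.39) for SYT1, -3.42 (SE 1.07) for STMN2 and -3.22 (SE 1.33) for MAP2. NEFM and SNAP25 did not pass. No member had an edgeR adjusted p under 0.05, and the lowest was 0.169. Without DPPA 1 the count was 2 (TUBB3 and STMN2), with the replicate block it was 4 (NEFH, TUBB3, STMN2 and SYT1), and without MHPJ 2 it was 9. It was 4 when any 1 of DPPJ 1, DPPJ 2, MHPJ 1, MHPJ 3, MHPA 2 and MHPA 3 was left out.

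The stages were also compared within each breed, in fits that share the pituitary libraries of the breed comparisons. All 3 MHPJ libraries nearly lacked the hormone genes, as did MHPA 1 among the adults. MHPA 2 and MHPA 3 held them at sums of 16717 and 25105 CPM. Stage and hormone content of the tissue thus cannot be told apart in MHs. In MHs, TUBB3, STMN2 and GAP43 were higher in juveniles than in adults, by 2.62 (SE 0.653), 2.15 (SE 0.599) and 3.62 (SE 1.16) on the log2 scale. Here 4.5% of the 14430 tested genes were called higher and 7.74% in either direction. The 3 genes had edgeR adjusted p between 0.355 and 0.391. Juvenile and adult MHs did not overlap for TUBB3 and STMN2, where 7.56% of tested genes had all juveniles above all adults, while for GAP43 MHPA 1 exceeded MHPJ 2. The median log2 fold change of the 9 was 2.15, against 0.01 for all tested genes. The count was 7 without MHPJ 2, 5 without MHPA 1 and 2 without MHPJ 3, MHPA 2 or MHPA 3.

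In DPs the fitted change of all 9 genes was below 0, which turned for TUBB3, STMN2, GAP43, SNAP25 and RBFOX3 without DPPA 1, and for SNAP25 also without DPPJ 2 and with limma. NEFH was lower in juveniles, with a log2 fold change of -2.61 (SE 1.04, edgeR adjusted p = 0.422), and the other 8 genes did not pass. Of the 14533 tested genes 2.64% were called lower and 3.56% in either direction. The median log2 fold change of the 9 was -1.26, against -0.03 for all tested genes, and it was 0.10 without DPPA 1. NEFH lost its call without DPPA 1 or any DPPJ library, and DESeq2 called MAP2 and not NEFH. Without DPPA 2 there were 4 calls (NEFM, NEFH, MAP2 and STMN2) and without DPPA 3 there were 3 (NEFH, MAP2 and SYT1).

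In the long bone the 9 genes were found at low levels, and several were not told apart from 0. The hormone genes of the anterior lobe were also found there. They summed to 72.1 CPM in DPLBA 3, 27.5 CPM in DPLBJ 2 and at most 7.12 CPM in the other long bone libraries. Carry-over of reads between the tissues was not tested. A library with at most 3 reads of a gene was taken as not told apart from 0, which covers counting error only. This held for GAP43 in 10 of 12 long bone libraries, RBFOX3 in 8, NEFH in 7, STMN2 in 6 and SNAP25 in 1. TUBB3, NEFM, MAP2 and SYT1 had more than 3 reads in all 12. TUBB3 ranged from 2.42 to 16.8 CPM, NEFM from 1.27 to 33.6 CPM, MAP2 from 0.899 to 34.1 CPM and SYT1 from 0.582 to 13.7 CPM.

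MHLBJ 3 and MHLBA 1 stood highest for most of the genes. STMN2 had 196 reads in MHLBJ 3 and 118 in MHLBA 1, against at most 30 in each other long bone library. SNAP25 had 282 and 199 reads there, against at most 54, and MAP2 had 339 and 391 reads, against at most 114. GAP43 had 44 reads in MHLBJ 3, 8 in MHLBA 1 and at most 3 elsewhere. GFAP had 313 reads in MHLBJ 3 and 30 in MHLBA 1, against 198 in MHLBA 2 and at most 98 in each other long bone library. In DPLBJ 1 and DPLBA 2 other genes were high. DPLBJ 1 had 188 reads of NEFM and 278 of the row described as neurofilament light, with 2 reads of STMN2 and 3 of SNAP25. DPLBA 2 had 272 reads of SYT1, with 2 of STMN2 and 11 of SNAP25.

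Between juvenile DPs and MHs, 5 of the 9 genes had enough reads in the long bone to be tested, and the vesicle genes SNAP25 and SYT1 were called lower in DPs. At this stage 5.47% of the 13755 tested genes were called lower and 13.8% in either direction. SNAP25 had 3, 14 and 9 reads in DPLBJ and 13, 16 and 282 reads in MHLBJ. SYT1 had 12, 8 and 10 reads in DPLBJ and 30, 16 and 260 reads in MHLBJ. With so few reads in DPLBJ, both genes entered the test through the MHs, and their calls are not read as a difference. For both genes the high MH library was MHLBJ 3, and after scaling by depth the breeds overlapped for each of the 5 genes, while 12% of tested genes had all DPs below all MHs. The log2 fold change was -3.08 (SE 1.25) for SNAP25 and -2.87 (SE 1.04) for SYT1, at edgeR adjusted p of 0.266 and 0.228. The count was 0 without MHLBJ 3, DPLBJ 2 or DPLBJ 3, 1 without DPLBJ 1 (SYT1) and 3 without MHLBJ 2 (TUBB3, SNAP25 and SYT1). The median of the 5 tested genes, SNAP25 and SYT1 included, was -1.03, against 0.05 for all tested genes.

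In adult long bone, NEFM, TUBB3 and SNAP25 were lower in DPs among the 6 genes tested, and STMN2 was the other gene called. Of the 14073 tested genes 8.03% were called lower and 18.3% in either direction. TUBB3 showed the smallest spread, with 3.10, 3.69 and 2.42 CPM in DPLBA and 6.55, 11 and 10.5 CPM in MHLBA. The breeds did not overlap, as for 13.8% of tested genes with all DPs below all MHs, and the log2 fold change was -1.63 (SE 0.398, edgeR adjusted p = 0.0735). STMN2 had 0, 2 and 12 reads in DPLBA and 118, 30 and 13 reads in MHLBA, so it entered the test through the MHs alone and its call is not read as a difference.

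NEFM had 34, 58 and 23 reads in DPLBA and 294, 141 and 21 reads in MHLBA, and SNAP25 had 12, 11 and 26 reads and 199, 54 and 14 reads. MHLBA 1 was the highest library for both, and on the CPM scale MHLBA 3 lay within the DP range. The log2 fold change was -2.44 (SE 0.962) for NEFM and -2.97 (SE 1.1) for SNAP25, at edgeR adjusted p of 0.175 and 0.154. Only TUBB3 was called without DPLBA 1, DPLBA 2 or MHLBA 1, and with the replicate block. The count was 5 without MHLBA 2 or MHLBA 3. The median of the 6 tested genes, STMN2 included, was -2.37, against -0.03 for all tested genes, and it was -0.73 without MHLBA 1.

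Between stages in the long bone, edgeR called 0 of 6 tested genes in MHs, with 0 at an unadjusted P under 0.05 and 0 by DESeq2, where 2.91% of the 13899 tested genes were called. Without MHLBJ 3 STMN2 was called. In DPs 2 of 5 tested genes were called, where 1.58% of the 13866 tested genes were called higher, 1.56% lower and 3.14% in either direction. NEFM was higher in juveniles, with 188, 101 and 43 reads in DPLBJ and 34, 58 and 23 reads in DPLBA. Its log2 fold change was 2.01 (SE 0.714, edgeR adjusted p = 0.988), and the stages overlapped. The row described as neurofilament light gave 3.15 (SE 1.04, edgeR adjusted p = 0.988), with 278, 27 and 58 reads in DPLBJ and 8, 38 and 13 reads in DPLBA. DPLBJ 1 stood far above the other libraries for this row. SYT1 was called lower in juveniles, with 12, 8 and 10 reads against 32, 272 and 42. Its log2 fold change was -3.06 (SE 0.886, edgeR adjusted p = 0.988). It entered the test through the adults, so its call is not read as a difference. NEFM lost its call without DPLBJ 1, DPLBA 1 or DPLBA 3. The breed effect did not pass the test for a difference between stages for any of the 6 genes tested in the long bone, with 0 at an unadjusted P under 0.05, where 4.17% of the 14735 tested genes were called.

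Other neuronal genes were taken from 6 lists by role, of which 75 of 81 genes were found by name. In the pituitary against long bone comparison 63 of 72 tested genes of these lists were higher in the pituitary and 3 lower, where 21.5% of all tested genes were called higher and 38.9% in either direction. The microtubule list had 14 higher and 1 lower of 16 and the vesicle and release list 24 higher of 25. Within the long bone, fewer list genes had enough reads to be tested. The test of the breed effect between stages there held 58 list genes, with 14 of the microtubule and 21 of the vesicle and release list. List genes with too few reads in the long bone entered the tissue comparison through the pituitary alone. The counts include such genes, whose calls are not read as support for the difference. The axon adhesion gene NFASC was higher in the pituitary by 5.92 (SE 0.227) on the log2 scale, the kinesin KIF1A by 7.15 (SE 0.449) and the presynaptic scaffold BSN by 4.98 (SE 0.341).

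Juvenile DPs had 25 of 70 tested list genes lower and 1 higher than juvenile MHs in the pituitary, where 12.7% of all tested genes were called lower and 20.3% in either direction. The microtubule list gave 11 lower of 16, the growth cone and axon list 4 of 11, the vesicle and release list 5 lower and 1 higher of 25, and the intermediate filament list 2 of 5. The neuronal RNA binding list gave 2 of 8 and the list of transmitter synthesis and loading 1 of 5. The counts of the RNA binding, transmitter and vesicle lists are near the 20.3% of all tested genes called in either direction. The intermediate filament list has 5 genes, so its 2 calls are too few to set against that share. The median log2 fold change over the 70 genes was -1.46, against -0.07 for all tested genes. Breed and hormone content of the tissue cannot be told apart for these genes either. The alpha-tubulin TUBA1A had 63.7 ± 11.3 CPM in DPPJ and 248 ± 27.6 CPM in MHPJ (SD, n = 3), a log2 fold change of -2.00 (SE 0.189, edgeR adjusted p = 0.00996). The adhesion molecule NCAM1 fell by 2.43 on the log2 scale (SE 0.374, edgeR adjusted p = 0.0223). The splicing factor RBFOX1, a relative of RBFOX3, had 7.11 ± 2.73 CPM in DPPJ and 143 ± 124 CPM in MHPJ (SD, n = 3) and a log2 fold change of -4.34 (SE 1.30).

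**Figure D5:**
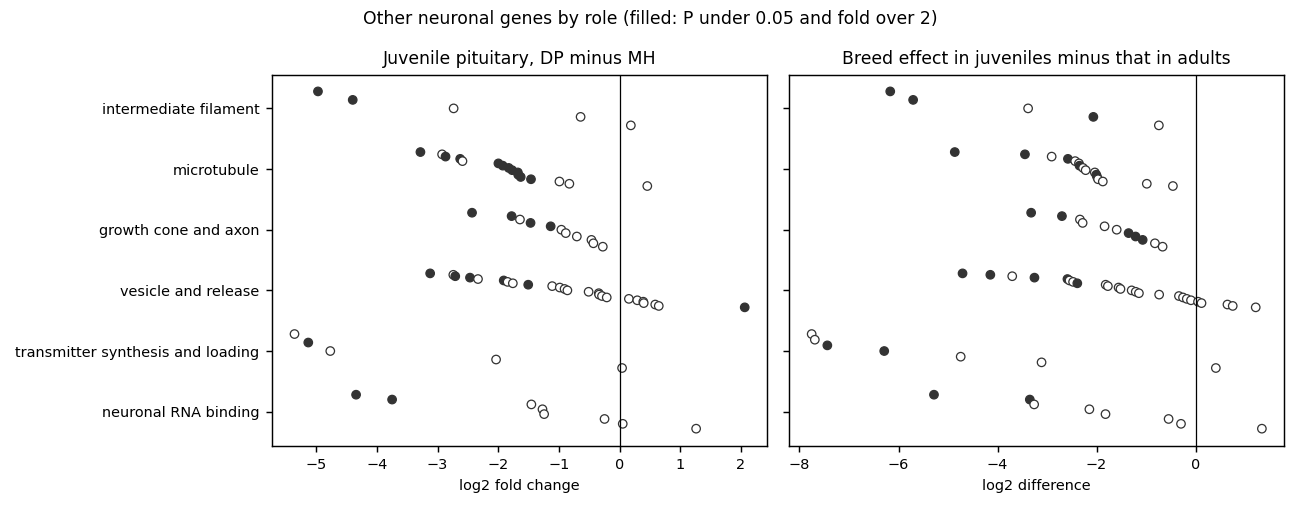
Log2 fold change between juvenile DPs and MHs in the pituitary (left) and difference of the breed effects of juveniles and adults (right) for the tested genes of 6 role lists, from edgeR, with filled points for calls. Of 70 genes on the left 25 were called below 0 and 1 above, and of 72 on the right 23 were called below 0.

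In the adult pituitary 5 of 69 tested list genes were higher in DPs and 0 lower, where 1.75% of all tested genes were called higher. The intermediate filament gene SYNM, whose product synemin is also made by astrocytes and muscle, was higher by 1.43 (SE 0.393), the RNA binding gene CELF4 by 2.11 (SE 0.601) and the growth cone gene BASP1 by 1.38 (SE 0.409) on the log2 scale, each at an edgeR adjusted p of 0.503. The breed effect of 23 of 72 list genes was lower in juveniles than in adults in the pituitary and that of 0 higher (8.87% of all tested genes were called lower), among them MAP1B at -3.45 (SE 0.794) and SYNM at -2.07 (SE 0.601). In MHs 10 of 70 list genes were higher in the juvenile pituitary and 0 lower (4.5% of all tested genes were called higher). Among them were the microtubule gene DPYSL3 at 1.35 (SE 0.182), the glutamate transporter gene SLC17A7 at 6.64 (SE 2.01) and the adhesion gene L1CAM at 1.65 (SE 0.548). SLC17A7 had 48.9 ± 45.6 CPM in MHPJ and 0.477 ± 0.416 CPM in MHPA (SD, n = 3), and the stages overlapped. Its log2 fold change rests on adult values near 0, and its call is not read as a difference. Stage and hormone content of the tissue cannot be told apart in MHs for these genes either. In DPs 7 of 68 were lower in the juvenile pituitary and 0 higher (2.64% of all tested genes were called lower), with SYNM at -1.56 (SE 0.449), CELF4 at -1.13 (SE 0.433) and the vesicle gene SV2B at -1.10 (SE 0.426). The named genes of these 3 comparisons had edgeR adjusted p between 0.148 for MAP1B and 0.422 for CELF4 and SV2B.

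The list genes did not share a direction between breeds in the long bone. In juveniles 4 of 50 tested genes were higher in DPs and 4 lower, a share near the 13.8% of all tested genes called in either direction, with a median of 0.08. The syntaxin gene STX1A was lower, with a log2 fold change of -3.21 (SE 0.596), as was CNTN1 with -1.95 (SE 0.563), and the tubulin gene TUBB2B was higher with 2.02 (SE 0.412). In adults 11 of 54 were higher in DPs and 7 lower, with a median of 0.18, where 18.3% of all tested genes were called in either direction. BASP1 had 88.5 ± 8.56 CPM in DPLBA and 10.7 ± 6.29 CPM in MHLBA (SD, n = 3), a log2 fold change of 3.0 (SE 0.482, edgeR adjusted p = 0.0333). STX1A changed in the other direction, with -3.08 (SE 0.572, edgeR adjusted p = 0.0422), as did the kinesin KIF5A with -1.86 (SE 0.465). Between stages in the long bone, 1 gene (NES) was higher and 2 lower of 53 in MHs, and 1 (ENO2) was lower of 51 in DPs, where 2.91% and 3.14% of all tested genes were called. The breed effect differed between stages for 1 of 58 (NES), where 4.17% of all tested genes were called.

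Genes whose level followed the 9 were ranked by Pearson's r of log2 CPM with the mean standardized level of the 9. Over the 12 pituitary libraries and 13518 named genes, 9 of the 10 highest were DNM1, ATP6V1G2, NCDN, BEND6, ZNF804A, CAMK2A, WASF1, GLS2 and ARRB2, with r between 0.974 and 0.985. The points share tissue, library and depth, and r is given as a description. Within the 7 libraries that held hormone genes r of these 9 ran from -0.0039 for NCDN to 0.767 for ARRB2. Over the 12 long bone libraries and the 6 genes tested there, STXBP5L, HMGCLL1, MOBP, PIK3C2G and DGKG were highest, with r between 0.867 and 0.914. Without MHLBJ 3 and MHLBA 1 these fell to between 0.341 and 0.747.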

How the data were processed

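Ribosomal RNA was depleted and strand-marking libraries were sequenced. The authors trimmed the reads and mapped them to the horse genome (EquCab 3.0 in the study's methods). The processing notes name TopHat2 and edgeR and the methods also name Salmon, and the counting tool is not given in the sources used here. The authors deposited raw read counts per gene and RPKM (reads scaled by gene length and by library size), both with replicates kept apart. The members and lists were chosen with earlier results of these data known.

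Counts were tested across all genes with edgeR 4.0.16 (R 4.3.3): filterByExpr with a minimum count of 10, TMM, glmQLFit and glmQLFTest, on the 6 libraries of a pair, the 12 of a tissue or all 24. P-values were adjusted by the Benjamini-Hochberg method over all tested genes, and the SE is the log2 fold change over the square root of F. CPM was scaled by TMM over all 24 libraries. Alternatives used DESeq2 1.42.0, limma 3.58.1 on log2(RPKM + 1) and log2(RPKM + 0.1), no filter, other size factors, a replicate block and left-out libraries. Code was tested on simulated data. Named are all members, the called gene with the lowest P of each role list (up to 3 per comparison) and the genes most like the members, except that some genes this rule names are not reported here. Log2 fold changes with SE are given for members where called. The labels do not say which libraries come from the same horse, so those of both tissues entered as separate samples.

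Replicate numbers were checked by correlating the deviations of same-numbered libraries from their group means across genes. All 3 pairs exceeded 0.1 in the adult pituitary (0.342 to 0.640), and not all pairs did in any other comparison. The labels do not say that numbers mark a shared day or batch. With 3 libraries a group, p-values rest on the spread between these libraries, which includes differences in the hormone content of the tissue.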

Additional observations from a re-analysis of the deposited data

Results flagged for a closer look

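The breed effect in the pituitary differed between juveniles and adults for 7 of the 9 genes by a test of the difference itself, an interaction term in edgeR over 12 libraries. On the log2 scale the juvenile minus the adult breed effect was -4.08 for NEFH, -4.37 for TUBB3, -3.22 for MAP2, -3.42 for STMN2, -6.27 for GAP43, -3.82 for SYT1 and -4.97 for RBFOX3. The edgeR adjusted p of these genes lay between 0.169 and 0.228. All 3 MHPJ libraries, DPPA 1 and MHPA 1 nearly lack anterior lobe hormone genes, so this contrast cannot be told apart from the hormone content of the tissue in juveniles.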

How the results depend on the processing

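No called member changed sign where it was tested. Of the tests under alternatives of members called in the main fits, 505 kept the call and 108 lost it. Alternatives in which a member was not tested are left out of these counts, and list genes were not followed singly. In the tissue comparison all 9 genes were called under every alternative run, with a median log2 difference of 4.47 with limma on log2(RPKM + 1), 5.33 without the 5 libraries that nearly lack hormone genes (chosen after seeing the data) and 6.31 to 7.17 without single libraries. This count and these medians include NEFH, GAP43 and RBFOX3, which entered the main test through the pituitary alone. The calls of these genes are not read as support for the difference. Requiring an adjusted p under 0.05 left 2 calls in juvenile pituitary and 0 in juvenile long bone, adult long bone, MH pituitary, DP pituitary, DP long bone and the pituitary interaction. With the replicate block the calls were 2 in juvenile pituitary, 2 in adult pituitary, 0 in juvenile long bone, 1 in adult long bone, 0 in DP pituitary and 4 in the pituitary interaction, and no other count moved by over 1.5 times. Fitting all 12 libraries of a tissue gave 1 in adult pituitary, 4 in juvenile long bone, 5 in MH pituitary, 0 in DP pituitary and 1 in DP long bone (median 0.083). DESeq2 gave 3 in adult pituitary, 1 in juvenile long bone and 6 in MH pituitary. No filter gave 2 in adult pituitary, 5 in MH pituitary, 1 in the long bone interaction and a median of -0.61 in DP long bone. Limma on log2(RPKM + 1) gave 0 in juvenile long bone, DP pituitary and DP long bone (median 0.15) and 1 in adult long bone (median -0.83). With log2(RPKM + 0.1) it gave 0 in juvenile long bone and DP pituitary and 2 in adult long bone. Without DPPA 1 and MHPA 1, also chosen after seeing the data, adult pituitary gave 2 (median 0.33).

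The share of all tested genes called was counted for the main fits alone, so member counts under alternatives have no such share beside them. Leaving out single libraries gave 3 to 9 calls in juvenile pituitary, 0 to 2 in adult pituitary, 0 to 3 in juvenile long bone and 1 to 5 in adult long bone. It gave 2 to 7 in MH pituitary, 0 to 4 in DP pituitary, 0 to 1 in MH long bone, 1 to 2 in DP long bone, 2 to 9 in the pituitary interaction and 0 to 1 in the long bone interaction. Medians ran from -2.85 to -1.85, 0.090 to 1.92, -1.58 to -0.54 and -2.89 to -0.73 in the 4 breed comparisons in that order. They ran from 1.80 to 2.79 in MH pituitary, -1.70 to 0.10 in DP pituitary, -2.19 to 1.57 in MH long bone and -0.20 to 0.96 in DP long bone. The cause was not tested. Low read numbers limit the long bone results, and 3 libraries against 3 cannot give an exact two-sided p under 0.1.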
